A study of Mus musculus with 4 samples.

Results

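The contrast described here sets livers that lost Myd88 in hepatocytes against wild-type livers, in mice that all ate the high-fat diet. It subtracts the wild-type high-fat array from the knockout high-fat array, gene by gene, and so uses 2 of the 4 arrays of the series. The wild-type mice were MyD88 lox/lox, and the knockout mice were ALB Cre MyD88 lox/lox, so the floxed gene was shared by every group and the Cre alone marked the knockout. The albumin promoter drives this Cre in hepatocytes, and the other cells of the liver keep a working gene. All mice were C57Bl6 and 16 weeks old, the sampled tissue was total liver, and the feed held 60% fat in this pair and 9.4% fat in the control-diet pair used for reference. Each array carried RNA pooled from 4 to 5 animals that had been picked for good RNA quality. There was 1 array per group, so no difference below has a replicate, a standard deviation or a p-value, and the number of arrays limits the precision.

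Values are log2 expression values, and a log2 difference of 1 is 2-fold. Of 22180 genes with a value, 13308 were bright enough to be compared, and all of them count as members of the contrast. A gene was counted as different where the knockout array lay at least 2-fold, or for a wider count at least 1.5-fold (0.58 on the log2 scale), above or below the wild-type array. These are folds between 2 pooled arrays and carry no statement about the spread between mice.

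MYD88 is the adaptor protein that Toll-like receptors and interleukin-1 family receptors recruit when they bind their ligands. It assembles the IRAK kinases and TRAF6, which switch on NF-kappaB and the MAP kinases. In liver, this route and interleukin-6 signalling drive the acute phase response, in which hepatocytes secrete serum amyloid, lipocalin, orosomucoid and complement proteins. Toll-like receptor 3 uses the adaptor TICAM1 instead, and interferon-induced genes can be reached without MYD88.

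On high-fat diet 30 genes (0.225% of those compared) were 2-fold or more higher in the knockout liver and 22 (0.165%) were lower by as much. At 1.5-fold the counts were 279 higher (2.1%) and 134 lower (1.01%). Across all genes the median log2 difference was 0.02, and the central 95% lay between -0.46 and 0.56. A difference above 0 was found for 54.0% of all genes, and counts of higher and lower list members below stand beside that share. Of the 30 higher genes, 12 were markers of the exocrine pancreas and 5 were predicted or unnamed genes. The other 13 were Cyp2c38, Cyp17a1, Saa3, Zfp955b, Phf11b, Abcd2, Wsb1, Zfp982, Gtf2e1, Zfp518a, Srsf10, Zfp942 and Esco1, of which Zfp982, Gtf2e1, Zfp518a, Srsf10, Zfp942 and Esco1 were named after their values were seen. Of the 22 lower genes, 10 were small RNA genes and 6 were skeletal muscle markers, which left Moxd1, Btbd35f2, Oser1, C4a, Ptcd3 and Zdhhc7. The muscle genes Ttn and Atp2a1 passed the brightness filter only through the wild-type high-fat array, where they were high. The split between higher and lower genes depended on the scaling between arrays. Among genes at least 1.5-fold apart, 67.6% were higher in knockout on the deposited values, 62.8% after centring each array on its median, 57.2% after cyclic loess and 53.2% after quantile normalisation.

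**Figure D1:**
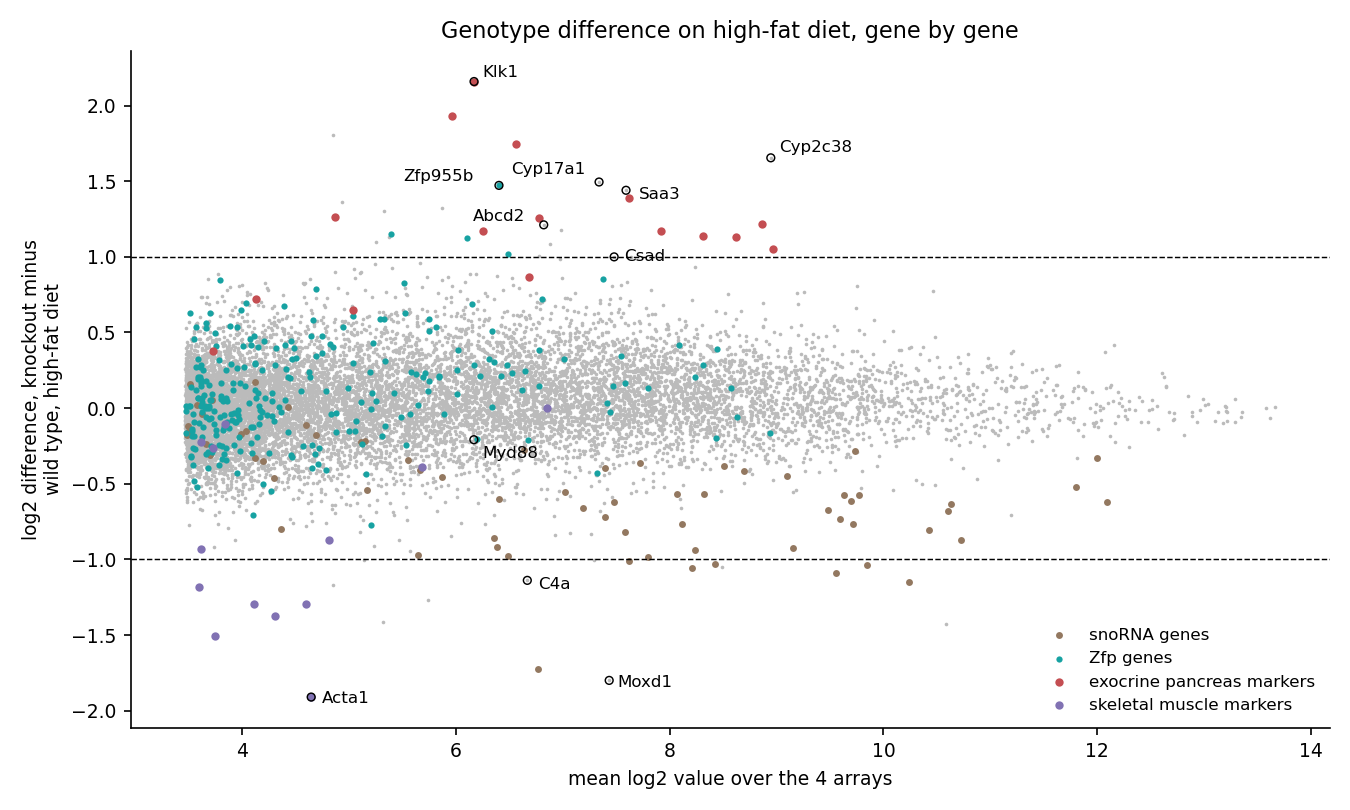
Log2 difference between knockout and wild type on high-fat diet (vertical axis) against the mean log2 value over the 4 arrays (horizontal axis), 1 point per gene for 13308 genes; dashed lines mark 2-fold. The pancreas markers (red) sit above 0, most skeletal muscle markers (purple) and snoRNA genes (brown) below it, and Myd88 at -0.21 lies inside the main cloud.

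The direction of these differences was also read on all 4 arrays. Of the 279 genes at least 1.5-fold higher in knockout, the knockout high-fat array was the highest of the 4 for 245, and the wild-type high-fat array was the lowest for 190. Of the 134 lower genes, the knockout high-fat array was the lowest of the 4 for 118, and the wild-type high-fat array was the highest for 84. The contrast itself favours those positions, so they are a description. The differences were spread over brightness. With genes split by brightness into 4 equal groups, from the dimmest to the brightest, 16, 61, 134 and 68 were at least 1.5-fold higher and 19, 38, 41 and 36 at least 1.5-fold lower.

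As a check of the labels, Myd88 (probe set 17532137) stood at 6.44 in wild type against 6.23 in knockout on high-fat diet, a log2 difference of -0.21, and at 6.10 and 5.91 on control diet. The knockout array was the lower one of each pair, and both differences were well inside the central 95% of all genes. The position of its probes against the floxed exon was not determined, and other liver cells keep the gene, so the value is no check of the deletion.

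Genes of the Toll-like and interleukin-1 receptor pathway differed little. Of 40 listed genes, 38 had a value and 33 were bright enough, with a median log2 difference of 0.05 against 0.02 for all genes. Of the 33, 1 was higher by 1.5-fold or more and 0 lower by as much, beside 2.1% and 1.01% of all genes. Among the ligands, Il18, a cytokine of the interleukin-1 family, was 6.76 in wild type against 7.30 in knockout, a difference of 0.53, whereas Il1b differed by -0.21. Among the receptors, Tlr9, a sensor of bacterial DNA, was 4.10 in wild type against 3.57 in knockout (-0.53). Tlr4, the receptor for bacterial lipopolysaccharide, differed by 0.12, its partner Ly96 by 0.38 and the interleukin-1 receptor Il1r1 by -0.10. Among the adaptors and kinases below them, Tirap differed by 0.20, Irak1 by 0.14 and Traf6 by 0.12. The gene past 1.5-fold was Tab3, which helps TRAF6 activate the kinase TAK1: it read 5.28 in wild type against 5.91 in knockout, and 5.52 and 5.55 on control diet. The adaptor TICAM1 gene, which serves the MYD88-independent route, differed by 0.04 (Ticam1).

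NF-kappaB subunits, inhibitors and targets showed the same small spread. Their median was -0.02 over 26 genes, with 13 higher and 13 lower. At 1.5-fold 1 of the 26 was higher and 0 lower, beside 2.1% and 1.01% of all genes. Cxcl9, a chemokine gene that interferon gamma induces, was the gene past 1.5-fold, at 7.23 in wild type against 8.03 in knockout, and at 7.31 and 7.28 on control diet. It was high on the knockout high-fat array alone. The NF-kappaB coactivator Bcl3 was lower by a difference of -0.50, and Tnfaip2 by -0.48. The inhibitor gene Nfkbia, which NF-kappaB itself induces, differed by 0.04, and the subunit gene Rela by -0.15.

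The acute phase genes were at similar levels in both genotypes on this diet, with a few exceptions. Over 34 genes the median log2 difference was 0.05, with 4 higher by 1.5-fold or more and 1 lower by as much, where the shares over all genes were 2.1% and 1.01%. Saa3, a serum amyloid gene that macrophages also express, was 7.49 in wild type against 8.93 in knockout, a difference of 1.44 (2.71-fold). Its control-diet values were 5.46 and 8.50, so both knockout arrays lay above both wild-type arrays. Lcn2, which encodes the siderophore-binding lipocalin 2, was likewise higher on both knockout arrays, with 7.56 in wild type against 8.37 in knockout, and with 4.97 and 9.27 on control diet. Hamp2, a copy of the iron hormone hepcidin, was 7.85 in wild type against 8.78 in knockout, and the metallothionein gene Mt1 was 8.73 and 9.33. Orm3, an orosomucoid gene, was the lower gene, at 4.69 in wild type against 3.82 in knockout (-0.87). Saa2 stood at 10.73 and 10.83, close together on high-fat diet. Saa genes share sequence, so a probe set may read more than one copy.

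On control diet the same 34 genes had a median difference of 0.47, and 13 were at least 1.5-fold higher (0.902% of all genes were). The difference between the diets has no replicate and was not tested.

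Complement genes held several of the lower values among the listed genes. Over 35 genes of complement and coagulation the median was -0.06, with 24 lower, 3 at least 1.5-fold lower (1.01% of all genes were) and 0 at least 1.5-fold higher (2.1%). C4a, the sex-limited copy of complement component 4, was 7.99 in wild type against 6.85 in knockout, a difference of -1.14. It read 5.38 and 6.47 on control diet, so the wild-type high-fat array was the highest of the 4. The neighbouring gene C4b, which encodes the main complement C4, was lower by a difference of -0.50; the copies share sequence and may share probes. C1ra, a protease of the first complement component, was 6.31 in wild type against 5.46 in knockout, and the other 3 arrays lay between 5.99 and 6.31. C1s1, its partner protease, was 5.60 and 4.69, but its other probe set read 0.23 higher in knockout, and the median over both probe sets was -0.34. Mbl2, the mannose-binding lectin that starts another complement route, went the other way, with 9.51 in wild type against 10.02 in knockout.

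Interferon-induced genes were somewhat higher in knockout. Among 37 interferon stimulated genes 27 were higher and 10 lower, where 54.0% of all genes were higher, and the median was 0.13. Of the 37, 4 were at least 1.5-fold higher and 0 lower, beside 2.1% of all genes that were at least 1.5-fold higher. Among 10 guanylate-binding proteins and immunity-related GTPases, which interferon gamma induces, the median was 0.28 and 2 were at least 1.5-fold higher. Both medians kept their sign under every scaling run. On control diet the 2 lists had medians of 0.17 and 0.28. Each contrast has its own pair of arrays, and neither was tested.

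Promoter sequences are shown for 4 of these 6 genes, because interferon-induced promoters are known for a short paired GAAA element to which interferon regulatory factors bind. Irgm2 is shown with them since its promoter resembles that of Igtp while its expression differed by only -0.06. Each line gives bases -130 to -11 relative to the annotated start, 5′ to 3′ on the gene's strand, from RefSeq on GRCm38.p6, with the motif in capitals.
Isg15 promoter: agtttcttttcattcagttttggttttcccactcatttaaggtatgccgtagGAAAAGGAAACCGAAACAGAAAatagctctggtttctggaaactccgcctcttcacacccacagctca
Ifit1 promoter: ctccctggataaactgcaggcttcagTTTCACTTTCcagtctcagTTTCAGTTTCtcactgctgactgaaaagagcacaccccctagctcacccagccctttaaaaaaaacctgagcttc
Rsad2 promoter: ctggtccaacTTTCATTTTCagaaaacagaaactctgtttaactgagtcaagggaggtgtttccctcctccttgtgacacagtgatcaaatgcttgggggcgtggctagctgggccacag
Igtp promoter: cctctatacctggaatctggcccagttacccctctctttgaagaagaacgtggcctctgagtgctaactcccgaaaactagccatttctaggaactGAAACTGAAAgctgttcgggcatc
Irgm2 promoter: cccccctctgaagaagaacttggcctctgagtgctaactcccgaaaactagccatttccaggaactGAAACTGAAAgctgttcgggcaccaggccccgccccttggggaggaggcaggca
The capitals mark every match to GAAANNGAAA, or to TTTCNNTTTC where it lies on the other strand, and overlapping matches run together. The stretches are chr4:156200829-156200948 on the minus strand, chr19:34640759-34640878 on the plus strand, chr12:26456463-26456582 on the minus strand, chr11:58199426-58199545 on the plus strand and chr11:58214847-58214966 on the plus strand.

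Isg15 holds 3 overlapping matches in 1 run, Ifit1 holds 2 separate matches, and the other 3 hold 1 each. The motif was searched on both strands in the 250 bases before the start site. A match was present for 936 (3.46%) of the 27025 genes with a tabulated promoter. Of the 47 interferon-induced genes compared, 31 were found in the table and 14 of these (45.2%) had a match. All 4 of the genes at least 1.5-fold higher that were in the table had one, and so did 10 of the other 27 (37.0%). Usp18 and Gbp10 were not among the table's entries. Igtp and Irgm2 carry the same 10 bases, GAAACTGAAA, with almost the same bases around them. A match is a description of these letters and not a measured binding site.

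The values of these genes on the arrays were as follows. Usp18, a protease that removes ISG15 from proteins and dampens interferon signalling, was 5.88 in wild type against 6.74 in knockout, a difference of 0.86. On control diet it was 6.49 in wild type and higher by 0.50 in knockout, so the wild-type high-fat array was the lowest of the 4. Isg15, the ubiquitin-like modifier, was 4.25 and 4.92 on high-fat diet, and 4.01 and 4.41 on control diet. The knockout was the higher array of both pairs, as it was for Ifit1, an RNA-binding antiviral protein gene, at 5.54 and 6.16 on high-fat diet and 5.57 and 6.02 on control diet. Rsad2, which encodes the antiviral enzyme viperin, was 5.18 and 5.79, and 5.38 and 5.46 on control diet. The GTPase gene Igtp was 5.67 and 6.33 on high-fat diet, against 6.11 and 6.24 on control diet, so its difference of 0.67 came with a low wild-type high-fat value. Irgm2, with the similar promoter, was 7.21 and 7.14, a difference of -0.06. Gbp10, a guanylate-binding protein gene, was 8.92 and 9.56. Trim30a was the lowest of the interferon list, with a difference of -0.36.

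Antigen presentation genes, many of them also interferon-induced, had a median of -0.08 over 17 genes, and none of the 17 was 1.5-fold apart. The class II genes H2-Aa and H2-Ab1 were lower by differences of -0.53 and -0.48, and the peptide transporter gene Tap1 by -0.47. H2 genes are close copies of each other and their probe sets may mix them.

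**Figure D2:**
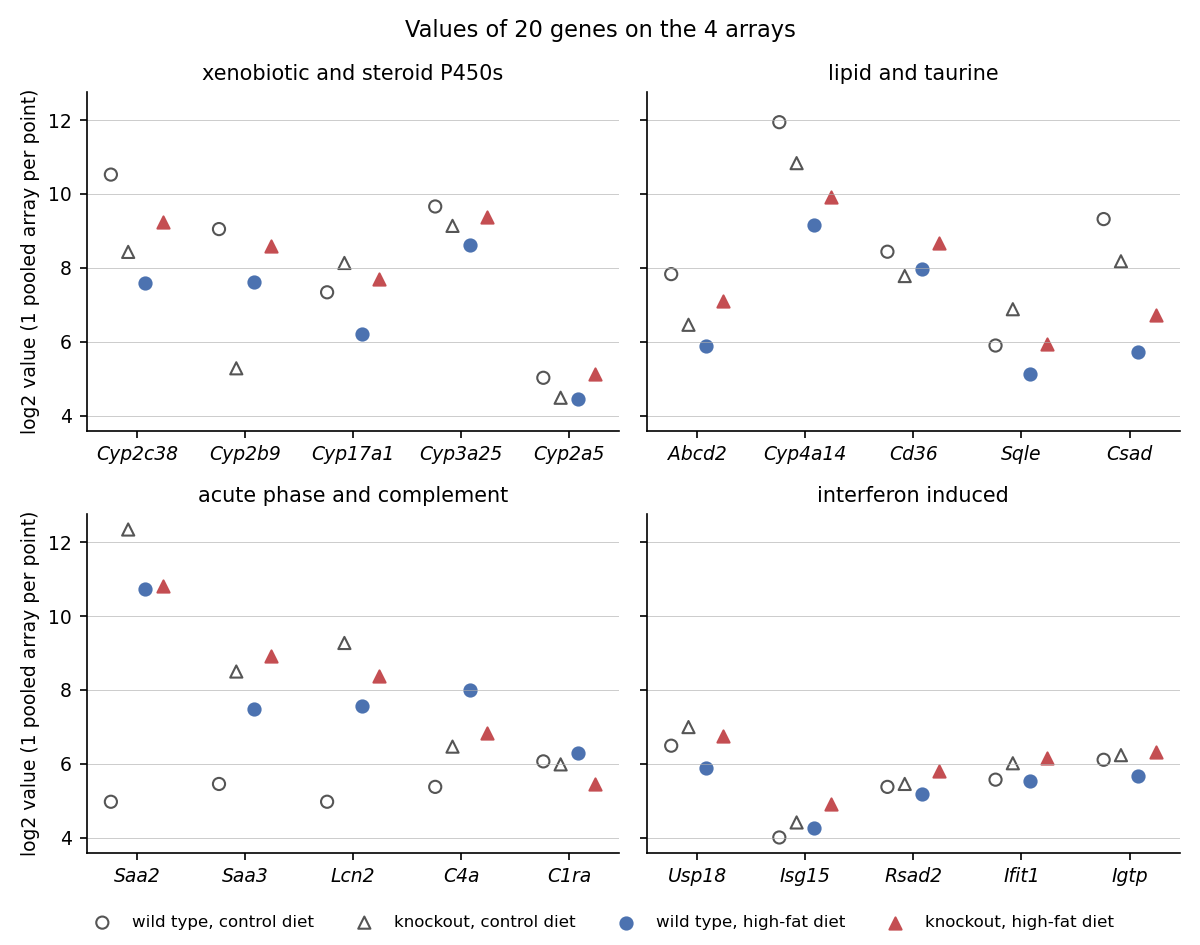
Log2 values of 20 genes on the 4 pooled arrays: circles are wild type, triangles are knockout, open symbols control diet and filled symbols high-fat diet, 1 array per point. Cyp2c38, Cyp2b9 and Abcd2 are lower in knockout on control diet and higher in knockout on high-fat diet, and Saa2 differs between genotypes on control diet and sits at 10.73 and 10.83 on high-fat diet.

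The 2 highest named genes outside the pancreas markers encode cytochrome P450 enzymes. CAR and PXR are nuclear receptors that sense drugs and bile acids and induce the P450 enzymes of families 2 and 3. Over 29 of their targets the median difference was 0.18, with 21 higher and 8 lower; 4 of the 29 were at least 1.5-fold higher and 0 lower, beside 2.1% and 1.01% of all genes. On control diet the median was -0.37 and 9 were at least 1.5-fold lower, as were 0.864% of all genes. Cyp2c38, a P450 of the 2C family, was 7.59 in wild type against 9.24 in knockout on high-fat diet, a difference of 1.65 (3.15-fold). On control diet it was 10.53 in wild type against 8.43 in knockout. The order of the genotypes was thus opposite on the 2 diets, with wild type spanning the wider range. Cyp2b9 behaved alike in order, with 7.61 and 8.60 on high-fat diet, just short of 2-fold, and 9.05 and 5.28 on control diet. Cyp3a25 was 8.61 and 9.37, and Cyp2a5, a coumarin hydroxylase, was 4.46 and 5.13. The commonly used marker genes of CAR and PXR differed less: Cyp2b10 differed by 0.03 and Cyp3a11 by 0.23. The receptor genes Nr1i3 (CAR) and Nr1i2 (PXR) differed by -0.25 and 0.02. Cyp2b, Cyp2c and Cyp3a genes have near-identical copies, so single members are uncertain.

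Steroid metabolism held the next largest P450 difference. Cyp17a1, the enzyme that makes androgen precursors, was 6.20 in wild type against 7.69 in knockout, a difference of 1.49 (2.82-fold). Its control-diet values were 7.34 and 8.13, so the knockout was the higher array on each diet and the wild-type high-fat array was the lowest of the 4. Star, which brings cholesterol into mitochondria for steroid synthesis, was 3.77 and 4.40, near the lower end of the range compared. The list of 21 steroid genes had a median of 0.06, and these 2 were its genes past 1.5-fold (all genes at least 1.5-fold higher: 2.1%). Cyp21a1, a steroid hydroxylase, was the lowest of the list, at 4.12 in wild type against 3.62 in knockout (-0.50).

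Some of the same genes are known for sex-biased expression in mouse liver, which growth hormone sets. The 11 female-biased genes bright enough to compare had a median of 0.25, with 8 higher and 3 at least 1.5-fold higher (all genes: 2.1%), which were Cyp17a1, Abcd2 and Cyp2b9. Their median on control diet was -0.82, with 7 at least 1.5-fold lower (all genes: 0.864%). The 22 male-biased genes had a median of -0.14 with 15 lower, and 1 was at least 1.5-fold lower (all genes: 1.01%). This was Ugt2b38, a glucuronosyltransferase gene, at 5.08 in wild type against 4.34 in knockout. The male-biased gene Selenbp2 was 11.56 and 11.09. Beside these genes, the Y-linked genes were all higher on the knockout high-fat array, Uty by 0.67, Eif2s3y by 0.52 and Kdm5d by 0.42, and Xist, which is expressed from the inactive X, lay between 3.07 and 3.23 on the 4 arrays, below the brightness filter. On control diet Uty and Kdm5d were also higher in knockout, by 0.33 and 0.53, and Eif2s3y differed by -0.17. Whether the pools differed in the sex of their mice is not given in the labels used here, and the part of the Y-linked genes in the result was not tested. Of the growth hormone axis itself, Stat5a was higher by 0.58 and Socs2, which growth hormone induces, by 0.49 (0.27 as the median over its probe sets), while Cish, another induced gene, was lower by a difference of -0.40, and the list median over 14 genes was 0.01.

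Lipid genes showed single large differences in lists that were otherwise near 0. PPARalpha is the nuclear receptor that turns on fatty acid oxidation in peroxisomes, mitochondria and microsomes. Over its 37 targets the median was 0.03, a value whose sign turned under other scalings. Of the 37, 3 were at least 1.5-fold higher and 0 lower, beside 2.1% and 1.01% of all genes. Abcd2, a peroxisomal importer of very long chain fatty acids, was 5.90 in wild type against 7.11 in knockout (1.21, 2.32-fold), and 7.83 and 6.46 on control diet. Cyp4a14, a fatty acid omega-hydroxylase, was 9.15 and 9.92 on high-fat diet, both below its control-diet values of 11.94 and 10.84. The fatty acid transporter gene Cd36 was 7.96 and 8.68, and 8.44 and 7.78 on control diet. All 3 were higher in knockout on high-fat diet and lower in knockout on control diet. Fabp4, a fatty acid binding protein gene of fat cells and macrophages, was 6.43 and 7.07; Pparg, the fat cell receptor gene, was 4.46 and 5.02.

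In cholesterol synthesis, 15 of 21 genes were higher in knockout and the median was 0.14. Sqle, squalene epoxidase, was 5.13 in wild type against 5.93 in knockout, and 5.90 and 6.88 on control diet, so the knockout was the higher array on both diets. Hmgcs1, an early enzyme of the pathway, was 8.93 and 9.48, and Hsd17b7 was 7.19 and 7.66. Srebf2, the transcription factor that induces these enzymes, was lower, at 6.32 in wild type against 5.75 in knockout (-0.56). It therefore had the opposite direction to the enzymes named. Among genes of fatty acid and triglyceride synthesis the median was -0.01 over 27 genes, and the largest difference was that of Me1, malic enzyme, at 8.81 and 9.40, just short of 1.5-fold. The stearoyl-CoA desaturase gene Scd1 was 11.34 and 11.75.

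Bile acid genes had a median of 0.02 over 24 genes, with a sign that turned under another scaling. Cyp39a1, a hydroxylase of an alternative bile acid route, was 7.24 in wild type against 7.93 in knockout. It was the 1 gene of the 24 past 1.5-fold, beside 2.1% of all genes that were at least 1.5-fold higher. Cyp7a1, the rate-limiting enzyme of the classic route, was 10.48 and 10.88, the highest of its 4 values, and Klb, the co-receptor through which FGF15 represses it, was 7.87 and 8.36. Cyp8b1 and Cyp7b1, enzymes that shape the bile acid pool, differed by -0.18 and -0.04. The transporter list had 20 genes and a median of -0.01. Of these, 2 were at least 1.5-fold lower, beside 1.01% of all genes: the organic anion transporter Slc22a7 (7.69 and 6.85) and Abcc6 (8.38 and 7.78).

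In sulphur amino acid metabolism, Csad, the decarboxylase that makes taurine for bile acid conjugation, was 5.71 in wild type against 6.71 in knockout, just short of 2-fold. On control diet it was 9.32 and 8.18. Both high-fat arrays were thus far below both control arrays, and the wild-type one was the lowest. The other 29 genes of amino acid catabolism, the urea cycle and taurine were under 1.5-fold, and the list median was 0.06.

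Hormone and time-of-day genes added a few single differences. Igfbp1, an insulin-repressed and fasting-induced secreted protein gene, was 8.91 in wild type against 9.72 in knockout (0.80), both below the control-diet values of 10.12 and 10.28. The insulin receptor substrate gene Irs2 was 5.33 and 5.61, and the median of 20 insulin signalling genes was 0.00. Arntl, the activator of the circadian clock, was 3.95 and 4.62, against 5.92 and 5.62 on control diet. The clock-controlled genes Noct and Wee1 were higher by 0.58 and 0.57, and Cry1, a clock repressor, by 0.44. Arntl and Wee1 are known to peak at different times of day, and both were higher in knockout here. Time of tissue collection is not given in the labels used here, and its part in these values was not tested.

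Transcripts of other organs were among the largest differences on both sides. Exocrine pancreas markers, most of which encode secreted digestive enzymes, were measured for 20 of 24 listed genes, 16 of them bright enough, and these 16 were higher in knockout with a median of 1.17. Of these, 15 were at least 1.5-fold higher (all genes: 2.1%), among them 12 past 2-fold (all genes: 0.225%). On control diet the median was 2.35. Their summed signal, as a log2 value, was 9.44 in wild type against 11.80 in knockout on control diet and 11.64 and 12.85 on high-fat diet. Klk1, a tissue kallikrein of glands, was the highest gene of the whole contrast, at 6.11 in wild type against 8.27 in knockout (4.47-fold). Reg1, a regenerating protein gene of acinar cells, was 5.48 and 7.41, and Pnliprp1, a pancreatic lipase-related gene, 6.49 and 8.24. The order over the arrays was the same for these genes, with the wild-type control array the lowest and the knockout high-fat array the highest. Ptf1a, the transcription factor that defines acinar cells, was below the filter, between 3.20 and 3.37 on every array. In pooled bulk RNA, fewer cells of a type and less RNA per cell cannot be told apart.

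Skeletal muscle markers were high on the wild-type high-fat array. Of 21 with a value, 13 were bright enough to compare, and these had a median of -0.93. Of the 13, 8 were at least 1.5-fold lower, beside 1.01% of all genes. Over all 21, without the filter, the median was -0.64. Ttn, Myh2 and Atp2a1, which are among the 8, passed the brightness filter only through the wild-type high-fat array. The count of 8 and the median of -0.93 thus depend in part on the array where these genes were high. Acta1, the skeletal muscle actin gene, was 5.93 in wild type against 4.02 in knockout, and 4.37 and 4.28 on control diet. Ttn, titin, was 4.84 and 3.34, and Mb, myoglobin, 5.37 and 3.99; the control-diet values were 3.45 and 3.36 for Ttn and 3.93 and 3.95 for Mb. The wild-type high-fat array stood above the other 3 for these 3 genes, and the summed signal of the list was 9.18 there against 8.15 to 8.59 elsewhere. Neb, nebulin, was 7.54 on both high-fat arrays. Ckm, muscle creatine kinase, was 5.37 and 4.08, although its other, dim probe set differed by -0.08. How far other pancreas or muscle transcripts enter the rest of the contrast was not tested; without the markers of other tissues, 18 genes were at least 2-fold higher.

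Markers of the cells of the liver itself differed little. The 7 hepatocyte markers had a median of 0.01, with Alb, albumin, at 13.64 and 13.65. Kupffer cell and macrophage markers had a median of 0.10 over 17 genes, sinusoidal endothelial markers 0.05 over 14, stellate cell markers 0.14 over 12 and cholangiocyte markers -0.12 over 6. None of these markers reached 1.5-fold. The largest were Lrat, the retinol-storing enzyme of stellate cells, with a difference of 0.57, Lyve1 of endothelium with 0.47, and the macrophage genes Cd9 with 0.45 and Cd5l with -0.47. The other, dim probe set of Cd9 differed by -0.18, so that the median over both was 0.13. Of the lymphoid lists, Ighm, the immunoglobulin heavy chain, was 8.31 in wild type against 7.89 in knockout on its brightest probe set, and its other probe sets differed by between -1.63 and 0.22. Most markers of neutrophils, T cells and B cells were below the filter.

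**Figure D3:**
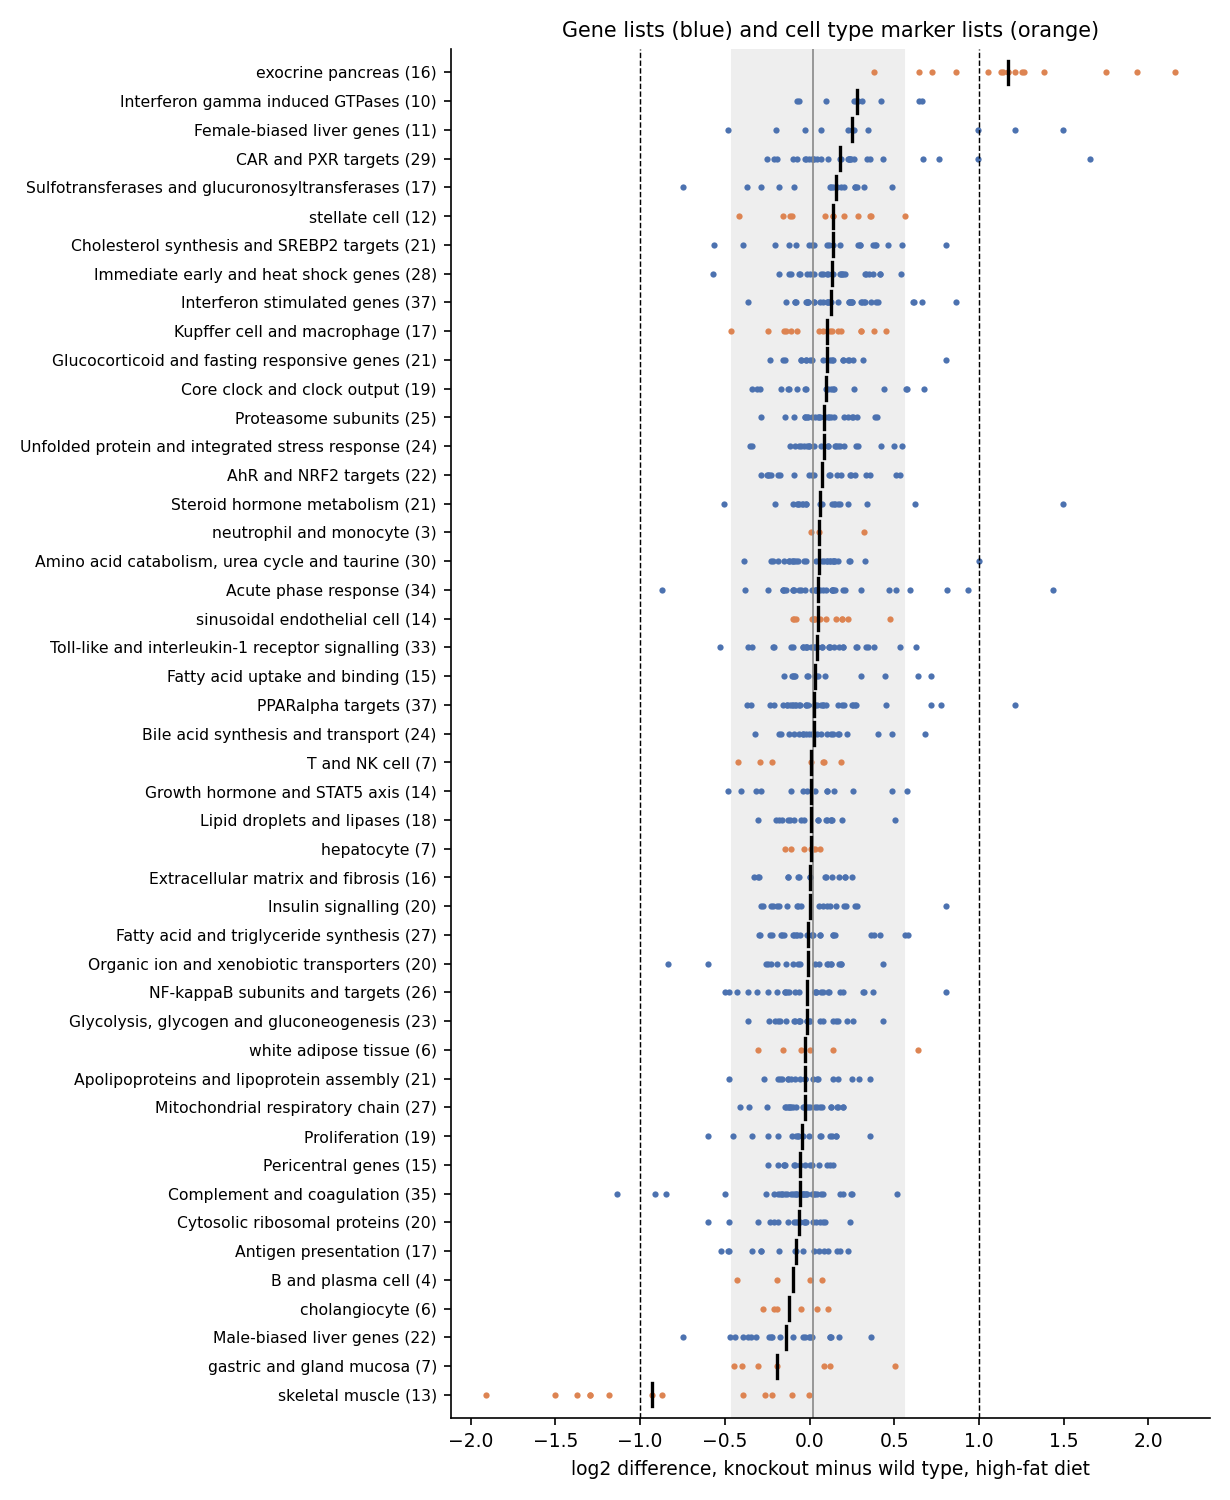
Log2 difference between knockout and wild type on high-fat diet (horizontal axis) for each gene (points) of the gene lists (blue) and cell marker lists (orange), with the number of genes compared in parentheses and a black bar at each list's median; lists with under 3 genes are left out. The grey band is the central 95% of all genes, from -0.46 to 0.56, and the pancreas (1.17) and skeletal muscle (-0.93) medians are the ones outside it.

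The pathway lists for basic cell functions also had medians near 0. Ribosomal protein genes had a median of -0.06 over 20, respiratory chain genes -0.03 over 27, proteasome genes 0.09 over 25 and stress response genes of the endoplasmic reticulum 0.09 over 24. The ribosomal gene Rpl3 differed by -0.60, while its other probe sets differed by -0.11 and 0.40. Proliferation genes had a median of -0.04 over 19, and E2f1, a cell cycle transcription factor gene, was 4.17 and 3.57. Immediate early and heat shock genes had a median of 0.13 over 28 with 21 higher, and none passed 1.5-fold.

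A pair of gene classes, chosen after their values were seen, stood apart from these lists. The first is the zinc finger protein genes whose symbols begin with Zfp, many of them KRAB repressors of transposons. Of 269 such genes 20 (7.43%) were higher in knockout by 1.5-fold or more and 2 (0.743%) lower by as much, against 2.1% and 1.01% of all genes; the class median was 0.07. Zfp955b was 5.71 in wild type against 7.18 in knockout (1.47, 2.77-fold), and 6.43 and 6.29 on control diet. Zfp982 was 5.03 and 6.18, Zfp518a 5.79 and 6.91, and Zfp942 6.21 and 7.23. For each of these 4 genes the knockout high-fat array was the highest. On control diet 0 of the 269 genes were at least 1.5-fold apart in either direction. Between 15 and 21 Zfp genes were at least 1.5-fold higher under the other settings run. Other genes among the 30 highest also had their top value on the knockout high-fat array: Srsf10, a splicing regulator, was 4.87 and 5.97, Gtf2e1, a subunit of general factor TFIIE, 4.92 and 6.06, and Wsb1, an adaptor of a ubiquitin ligase, 6.23 and 7.40. Phf11b, a PHD finger gene, was 4.03 and 5.39, and Esco1, an acetyltransferase of cohesin, was 6.31 and 7.32. On control diet Wsb1 was 7.22 in wild type and 7.10 in knockout, and Phf11b was 5.03 and 5.31. For Wsb1 and Phf11b the wild-type high-fat array thus stood well below the other arrays, which lay closer together.

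The other class is the small nucleolar RNAs, which guide the chemical modification of ribosomal RNA and are mostly cut from introns. Of 68 snoRNA genes 30 (44.1%) were at least 1.5-fold lower in knockout and none was 1.5-fold higher, against 1.01% and 2.1% of all genes; their median was -0.56. The knockout high-fat array was the lowest of the 4 for 55 of the 68, beside 3543 of all 13308 genes. Snord42b was 7.20 in wild type against 5.48 in knockout, and 7.26 and 7.14 on control diet. Snord16a was 10.43 and 9.29, and Snord69 was 9.83 and 8.73, each again with control-diet values close to the wild-type high-fat one. On control diet the class median was -0.08. The snoRNA count was 30 to 36 under the other settings run. Among 137 microRNA genes the median was -0.05. At 1.5-fold 2 (1.46%) were higher and 7 (5.11%) lower, beside 2.1% and 1.01% of all genes. The knockout high-fat array was the lowest of the 4 for 47 of the 137. The snoRNA host transcripts Snhg1 and Snhg12 differed by -0.07 and -0.37. What the snoRNA values and the Zfp values share was not tested.

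**Figure D4:**
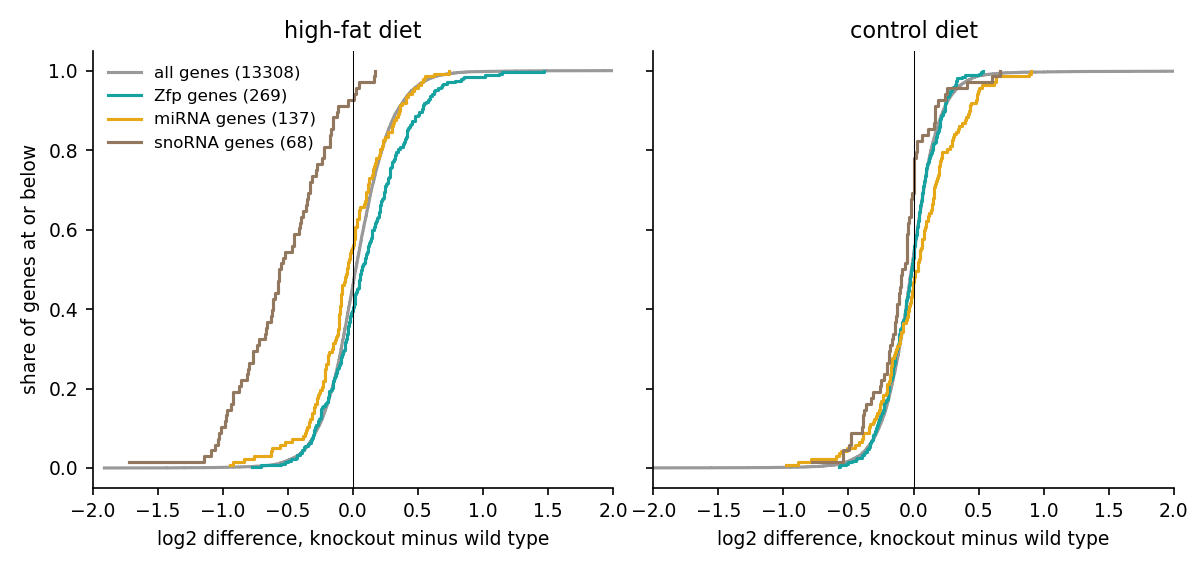
Cumulative share of genes (vertical axis) at or below each log2 difference between knockout and wild type (horizontal axis), on high-fat diet at the left and control diet at the right, for all 13308 genes, 269 Zfp genes, 137 microRNA genes and 68 snoRNA genes. The snoRNA curve is shifted to the left on high-fat diet, with a median of -0.56 against -0.08 on control diet, and the Zfp curve has a longer right tail on high-fat diet.

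The genotype difference on control diet, from the other pair of arrays, gives a reference for each member. There, 46 genes (0.346%) were higher in knockout by 2-fold or more and 21 (0.158%) lower by as much; at 1.5-fold the counts were 120 higher (0.902%) and 115 lower (0.864%). Of the 30 genes that were 2-fold or more higher on high-fat diet, 13 were so on control diet too, and 2 were 2-fold or more lower there. Most of these 13 were exocrine pancreas markers, such as Klk1 and Reg1, with control-diet differences of 3.54 and 2.96. Saa3 was another, with 3.04. Of the 22 lower genes 0 were at least 2-fold lower on control diet, and 2 were at least 2-fold higher. At 1.5-fold, 27 of the 279 higher genes shared the direction on control diet and 11 had the opposite one, and for the 134 lower genes these counts were 0 and 5. Most genes that differed on high-fat diet were thus under 1.5-fold on control diet. So were most of all genes compared, of which 0.902% were at least 1.5-fold higher there and 0.864% lower.

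Moxd1, a copper monooxygenase-like gene, had the widest range of those with opposite directions. It was 9.24 in wild type against 7.44 in knockout on high-fat diet, and 4.03 and 9.04 on control diet, so the wild-type control array stood far below the other 3. The remaining named genes at least 2-fold lower were Btbd35f2 (5.89 and 4.47), Oser1 (5.62 and 4.45), Ptcd3, a mitochondrial translation gene (8.71 and 7.66), and Zdhhc7, a palmitoyltransferase gene (5.57 and 4.56). For Ptcd3 the other probe set was higher in knockout by 0.37, so the gene has no settled direction. The other, dim probe set of Oser1 differed by -0.15.

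**Figure D5:**
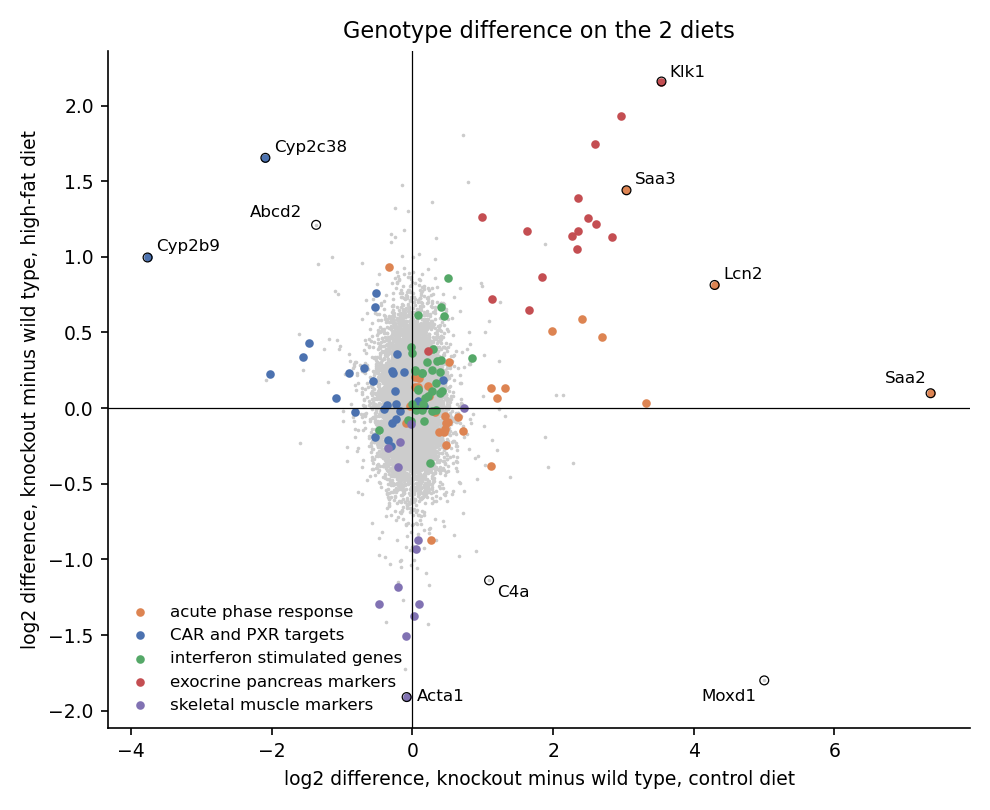
Log2 difference between knockout and wild type on high-fat diet (vertical axis) against the same difference on control diet (horizontal axis), 1 point per gene, with 5 gene groups coloured. Pancreas markers lie in the upper right, skeletal muscle markers below 0 near the middle, Saa2 far to the right at a high-fat difference of 0.10, and Cyp2c38, Cyp2b9 and Abcd2 in the upper left.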

How the data were processed

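Liver RNA of 4 groups, each a pool of 4 to 5 mice, was read on 1 Affymetrix array per group. Each deposited value is the log2 expression of a probe set, for which the submitters' processing notes name RMA and Affymetrix Expression Console; versions and genome build: not given in the sources used here. A step of that procedure normalises between arrays. Differences of dim probe sets may be compressed near the background, which was not measured here. The deposited arrays were close to each other but not identical in distribution: array medians lay between 3.53 and 3.56 and the 2 high-fat arrays correlated with r = 0.987 over all probe sets. Detection calls were not used here, so signal over background is unknown.

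Of 41345 probe sets, 23521 had 1 gene symbol in the platform annotation, 1814 several and 16010 none, and those with several or none were left unnamed. A gene was read from its probe set with the highest mean, a choice for 1082 of 22180 genes. Genes with a mean log2 value below the 40th percentile (3.47) were left out. Differences are plain subtractions, without a test. The 35 gene lists and 13 marker lists held 1054 genes, of which 952 had a value and 852 passed the filter. The members and lists were chosen with earlier results of these data known. Named were Myd88, the 15 highest and 15 lowest genes other than predicted and small RNA genes, list members past 1.5-fold or with the largest differences, and markers; other genes named were chosen after their values were seen. Alternatives were another filter, cyclic loess and quantile normalisation (limma 3.58.1, R 4.3.3), median centring, and leaving out marker or small RNA genes. The counting was tested on simulated data. Python 3.11.15, pandas 2.3.3 and NumPy 2.4.6 were used.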

Additional observations from a re-analysis of the deposited data

Results flagged for a closer look

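Of the genes compared, 4 were at least 2-fold apart between the genotypes in opposite directions on the high-fat and the control diet. The difference between the diets, as the high-fat genotype difference minus the control-diet one on the log2 scale, was 3.75 for Cyp2c38 and 2.58 for Abcd2, which were higher in knockout on high-fat diet and lower in knockout on control diet. It was -6.80 for Moxd1 and -2.23 for C4a, which went the other way. Each value rests on 4 arrays without replicates, and the difference was not tested.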

How the results depend on the processing

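The counts of genes at least 2-fold or 1.5-fold apart, of those highest or lowest on the knockout high-fat array, and of Zfp and snoRNA genes stayed within 1.5 times under 60 of 63 alternatives. Some of these could not change a count, as 0 small RNA genes were among those at least 2-fold higher. The range of 1.5 times is wide: under quantile normalisation the count at least 1.5-fold higher went from 279 to 197, and the lower count from 134 to 173. Without markers of other tissues the count at least 2-fold higher was 18 instead of 30. Without small RNA genes the count at least 2-fold lower was 12 instead of 22, and 78 instead of 118 of the genes at least 1.5-fold lower were lowest on the knockout high-fat array; both follow from leaving those genes out. Of the 77 genes past 1.5-fold that were named by the rule or in the text, 0 turned sign under the filters, scalings and probe set rules that kept them. A filter cannot change a gene's difference, so it could not turn a sign. The median over probe sets also hid single probe sets that were higher in knockout, for Ptcd3 (0.37), C1s1 (0.23) and Rpl3 (0.40). Reading a gene from the median over its probe sets moved 13 differences by over 0.1, among them C1s1 (-0.34), Cd9 (0.13), Ckm (-0.68), Oser1 (-0.66), Ptcd3 (-0.34) and Rpl3 (-0.11). List medians turned sign under another scaling for 8 of 48 lists, all with a median within 0.03 of 0. Another filter or probe set rule turned the sign of 11 medians, and in 7 cases a median moved by over 0.1; with the filter at the 60th percentile, gastric and gland mucosa went from -0.19 to 0.16, white adipose tissue from -0.02 to 0.14 and Proliferation from -0.04 to 0.04, and without a filter T and NK cell went from 0.01 to -0.10. No paired analysis was possible because each group has 1 array, and for the same reason no array could be left out. Dim genes are limited by the unknown background, and differences near the filter of 3.47 may be compressed, which was not measured.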
